A study of Macaca fascicularis with 7 samples.

Results

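The enzymes that write and erase marks on histones were followed at the level of their mRNA in maturing oocytes of the cynomolgus monkey (Macaca fascicularis). Members were taken by gene symbol alone: every KDM demethylase, KMT2 and KMT5 methyltransferase, numbered SETD, SUV39 and EHMT methyltransferase, EZH1 and EZH2, every numbered PRMT arginine methyltransferase, the KAT2 to KAT8 acetyltransferases and every numbered HDAC deacetylase. This rule found 65 of 28161 usable gene rows, and 62 of them passed the filter on low counts. The libraries came from wild type oocytes in 3 groups. The labels call the IVM group treated, naming no agent, and both other groups controls. In vitro matured (IVM) metaphase II (MII) oocytes, which reached the second meiotic arrest in culture, gave 3 libraries. In vivo matured (IVO) MII oocytes, which reached that arrest in the animal, gave 2 libraries. Germinal vesicle (GV) oocytes, which still hold an intact nucleus before meiosis resumes, gave 2 libraries. The labels state neither the age of the animals, nor the number of oocytes in a library, nor whether libraries came from separate animals, so a p-value here reflects nothing beyond the spread of these libraries, part of which may be technical.

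Histones carry methyl and acetyl groups that are set by writer enzymes and removed by erasers, and the pattern of these groups marks active and silent chromatin. A fully grown oocyte transcribes little, and its stored mRNA is known to be translated, deadenylated and degraded during meiotic maturation. The enzymes encoded by that store act on the chromosomes of the egg and, after fertilisation, of the early embryo. KDM1B, for instance, is known in mouse for its need in the growing oocyte to set up maternal DNA methylation at imprinted genes. Reverse transcription started from the poly(A) tail, so a longer or shorter tail can alter a count while the amount of mRNA stays as it was. As the number of oocytes in a library is not stated, less RNA per oocyte and fewer oocytes cannot be told apart.

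Library totals ranged from 22901970 to 29245733 counts, and the 65 genes together took 0.268 to 0.325% of the counts of an IVM MII library, 0.358 to 0.378% of an IVO MII library and 0.185 to 0.187% of a GV library. Levels below are CPM, counts scaled to a fixed library total after TMM normalization, which sets the libraries to a common scale. All 12 of 12 listed oocyte markers were found, with a summed level of 8410 to 17530 CPM in IVM MII, 7965 to 10210 CPM in IVO MII and 12000 to 14240 CPM in GV libraries. Between the MII groups ZP2 was called higher in IVM MII (log2 fold change 1.90, edgeR adjusted p = 0.0303). OOEP was called lower there (-1.62, edgeR adjusted p = 0.0438), and no other oocyte marker was called. Of 12 cumulus and granulosa markers 11 were found, with AMH, NR5A1 and PTX3 at 0 in every library, and their sum was 39.97 to 67.64 CPM in IVM MII, 43.13 to 55.78 CPM in IVO MII and 5.657 to 11.09 CPM in GV libraries. The similar MII sums hide different genes. FSHR had 53.5, 30.3 and 21.9 CPM in IVM MII against 6.01 and 3.32 CPM in IVO MII. HAS2 (13.5, 9.72 and 19.5 against 39.4 and 38.6 CPM) and CYP19A1 (0 against 9.83 and 1.23 CPM) lay lower in IVM MII. None of these was called between the MII groups. The 10 stroma, theca and endothelium markers, with COL3A1 and LUM at 0, summed to 74.02 to 90.83 CPM in IVM MII, 92.31 to 127.7 CPM in IVO MII and 1093 to 1220 CPM in GV libraries, and VWF made up most of the GV sum. The blood and immune markers, with CD14 and LYZ at 0, summed to 0.3218 to 5.301 CPM in IVM MII, 3.276 to 4.126 CPM in IVO MII and 25.38 to 33.49 CPM in GV libraries, where CSF1R made up most of it. The part of these markers in the differences from GV or between the MII groups was not tested. By the labels, the GV files lay in a folder of their own, apart from those of all MII libraries, so whatever differed between the folders cannot be told apart from the stage.

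Levels per kilobase of gene length compare different genes on the assumption that reads cover each gene along its length. Coverage was not checked, and all levels and ratios per kilobase rest on this assumption. On that scale KDM1B stood first among the 65 genes in both MII groups. Its level was 220.5 ± 72.58 CPM per kilobase in IVM MII (SD, n = 3) and 166 ± 83.1 CPM per kilobase in IVO MII (SD, n = 2), against 26.0 CPM per kilobase in GV oocytes. KMT2C, a large H3K4 methyltransferase that acts at enhancers, came next in both MII groups with 73.0 CPM per kilobase in IVM MII and 92.9 CPM per kilobase in IVO MII, against 14.6 CPM per kilobase in GV. In GV oocytes the order was different: the acetyltransferase KAT2A led with 42.3 CPM per kilobase, followed by the acetyltransferase KAT7 with 31.6 and then KDM1B with 26.0 CPM per kilobase. In CPM not divided by length, KMT2C stood above KDM1B in both MII groups. The means were 1293 against 988.3 CPM in IVM MII and 1645 against 744 CPM in IVO MII. KDM1B and KMT2C together made up 65.47 ± 5.526% of the summed CPM of the family in IVM MII (SD, n = 3), 58.38 ± 9.601% in IVO MII (SD, n = 2) and 28.18 ± 4.233% in GV libraries (SD, n = 2). These shares are not corrected for gene length, so the long KMT2C weighs more in them. Of the sum per kilobase, KDM1B made up 39.58% in IVM MII, 26.48% in IVO MII and 9.571% in GV libraries. KMT2C made up 13.32%, 14.97% and 5.364% in the same order. Without KDM1B and KMT2C the summed level was 1207 CPM in IVM MII, 1677 CPM in IVO MII and 952.3 CPM in GV oocytes.

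**Figure D1:**
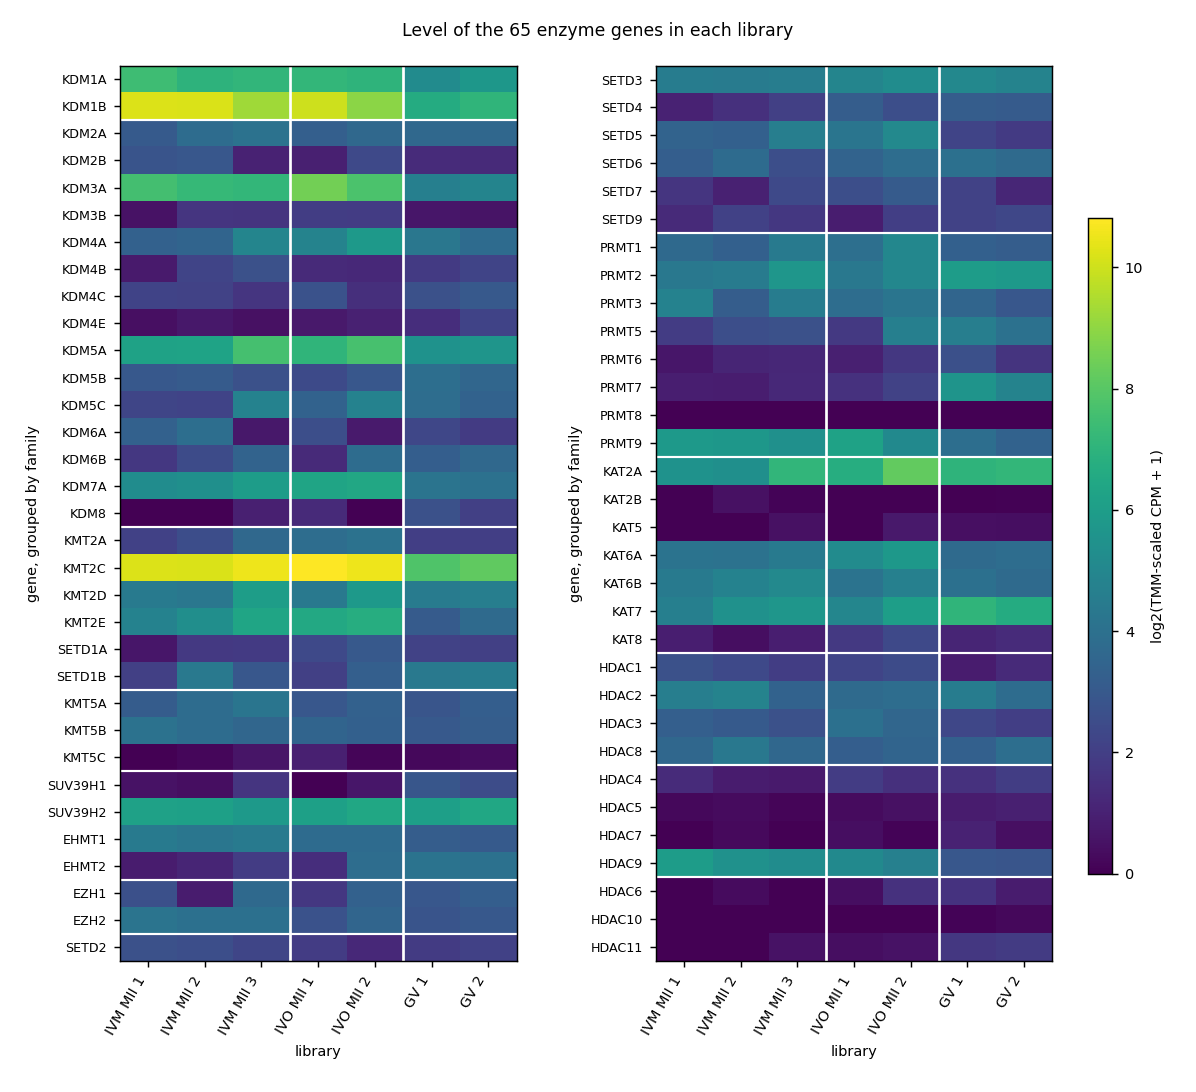
Level of each of the 65 genes (rows, grouped by family) in each of the 7 libraries (columns: 3 IVM MII, 2 IVO MII, 2 GV), as log2(TMM-scaled CPM + 1). KDM1B and KMT2C are the brightest rows in every MII library, at 481 CPM or more, while PRMT8 is at 0 in all 7 libraries.

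Most of the other genes were low. At least 1 CPM was reached by 46, 49 and 51 of the 65 genes in the IVM MII libraries, by 51 and 53 in the IVO MII libraries and by 57 and 56 in the GV libraries. The arginine methyltransferase PRMT8 had 0 counts in all 7 libraries, KAT2B had at most 9 counts in a library, and HDAC10 had 2 and 6 counts in the GV libraries and 0 in each MII library. These 3 genes did not pass the filter and have no test.

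The first question was how the relative mRNA level of these enzymes changes as the oocyte goes through meiotic maturation. CPM sets a gene against the rest of its library, so a gene can rise in CPM while its amount per oocyte stays or falls. Amounts per oocyte were not measured, and rose and fell refer to relative levels throughout. Against GV oocytes, 10 of the 62 tested genes rose and 4 fell in IVM MII oocytes (edgeR quasi-likelihood test, adjusted p under 0.05 over all 16374 genes tested), and 13 rose and 1 fell in IVO MII oocytes. Over all genes tested, 36.3% were called between IVM MII and GV (18.5% higher, 17.8% lower), and 28.1% between IVO MII and GV (14.6% higher, 13.5% lower). The family's share was 22.58% in each comparison, below the share over all genes, and most of its calls were upward by this fit. The balance moved with the fit: DESeq2 called 12 members higher and 9 lower in IVM MII and 14 higher and 5 lower in IVO MII over GV, and the newer edgeR fit called 13 higher and 13 lower in IVM MII. The split over all genes under these other fits is not given here, so the shift is not shown to be particular to the family. The median log2 fold change of the family was 0.06 in IVM MII over GV and 0.13 in IVO MII over GV, beside -0.10 and -0.16 over all genes in the same comparisons. Groups did not overlap for 67.74% of the tested members between IVM MII and GV, where 20 lay higher and 22 lower, beside 69.1% of all genes (31.5% higher, 37.5% lower). Between IVO MII and GV they did not overlap for 61.29%, where 24 lay higher and 14 lower, beside 72.8% of all genes (32.0% higher, 40.8% lower). Both comparisons share the GV libraries.

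Calls were made mostly among the abundant genes. Of 32 members at 10 CPM or more on average over the libraries, 37.5% were called in each comparison with GV, beside 51.65% of 7705 genes of that level between IVM MII and GV and 43.1% between IVO MII and GV. Of the called members at that level 10 rose and 2 fell in IVM MII, and 11 rose and 1 fell in IVO MII. Calls over all genes at that level tilted upward too. There 2614 were higher and 1366 lower in IVM MII over GV, and 2074 higher and 1247 lower in IVO MII over GV. Of 30 tested members below that level, 6.667% were called in each, beside 22.71% of genes at that level for IVM MII and 14.71% for IVO MII. Of the 14 calls between IVM MII and GV 5 were kept when each library was left out in turn, namely KDM1B, KDM3A, KMT2C, PRMT7 and HDAC9. Of the 14 between IVO MII and GV 3 were kept, namely KDM3A, KMT2C and PRMT7. Leaving out a GV or an IVO MII library leaves 1 library in that group, so fewer libraries set the spread in these fits. No member called against GV changed direction under any alternative. How many calls over all genes were kept is not given here, so the losses are not shown to be particular to the family.

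**Figure D2:**
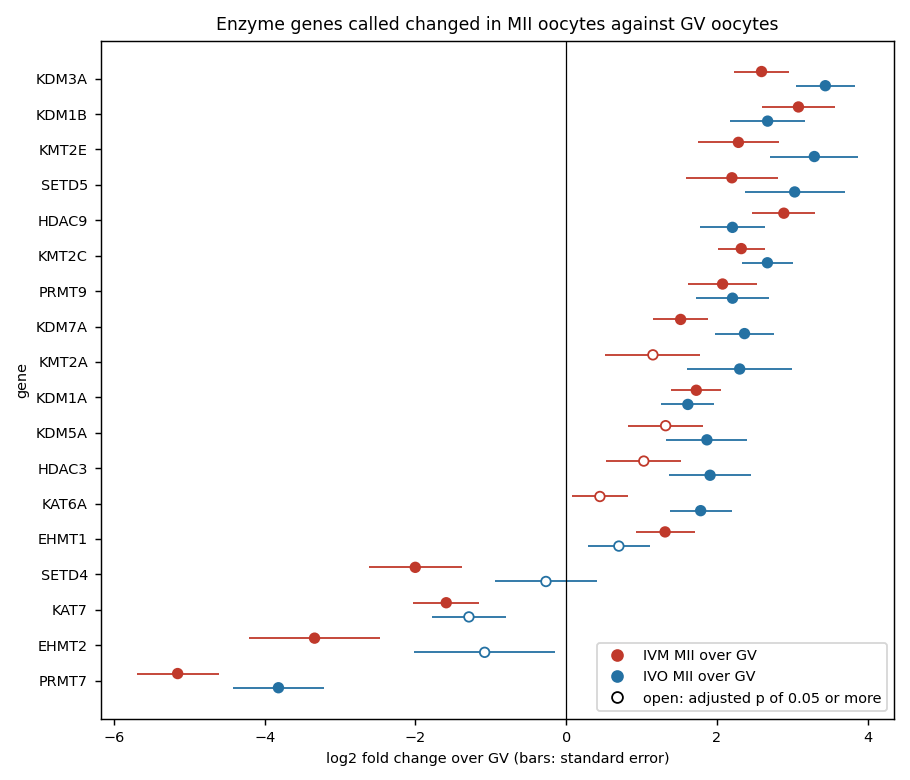
Log2 fold change over GV (x axis, bars are standard errors) of the genes called in at least 1 comparison with GV, for IVM MII (upper point of each row) and IVO MII (lower point). Filled points passed an edgeR adjusted p of 0.05, and PRMT7 lies furthest to the left at -5.16 in IVM MII and -3.82 in IVO MII.

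Both flavin-dependent demethylases, which remove methyl groups from H3K4, rose in both MII groups. KDM1B (chromosome 4, bases 152427908 to 152494226, minus strand, build not given in the sources used here) had 1195, 1156 and 613 CPM in the IVM MII libraries, 1007 and 481 CPM in the IVO MII libraries, and 100.0 and 133 CPM in the GV libraries. Every MII library lay above both GV libraries, and the third IVM MII and the second IVO MII library were the lowest of the MII libraries. The log2 fold change was 3.08 (SE 0.48, with an edgeR adjusted p of 0.0025) in IVM MII over GV and 2.67 (SE 0.49, with an edgeR adjusted p of 0.00581) in IVO MII over GV. KDM1A, the catalytic subunit of the CoREST repressor complex (chromosome 1, bases 205355577 to 205421387), had 173, 127 and 136 CPM in IVM MII, 140 and 129 CPM in IVO MII, and 36.03 and 51.7 CPM in GV libraries. The MII libraries were close to each other and all above GV, with a log2 fold change of 1.73 (SE 0.33, with an edgeR adjusted p of 0.00508) in IVM MII and 1.61 (SE 0.35, with an edgeR adjusted p of 0.0108) in IVO MII. Without the first GV library the edgeR adjusted p of KDM1A was 0.0882 in IVM MII and 0.137 in IVO MII, and that of KDM1B in IVO MII was 0.0526. Without the second it was 0.0561 for KDM1A in IVO MII.

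Of the 15 JmjC demethylases, which use iron and oxoglutarate, 2 rose in IVM MII and 3 in IVO MII, and none fell by this test, while 4 in each comparison had an unadjusted p under 0.05. Over the whole family such a p was reached by 22 genes in IVM MII and 20 in IVO MII over GV, beside 47.5% and 42.1% of all genes. KDM3A, which removes H3K9 mono- and dimethylation (chromosome 13, bases 22940696 to 22994144), had 190, 148 and 141 CPM in IVM MII libraries, 360 and 216 CPM in IVO MII libraries, and 24.6 and 28.4 CPM in GV libraries. All MII libraries lay far above GV, and both IVO MII libraries lay above all 3 IVM MII libraries. The log2 fold change was 2.59 (SE 0.37, with an edgeR adjusted p of 0.00185) in IVM MII over GV and 3.44 (SE 0.40, with an edgeR adjusted p of 0.0021) in IVO MII over GV. Its relative KDM3B stayed under 3 CPM in every library.

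KDM7A, which removes H3K9 and H3K27 dimethylation, had 37.4, 40.6 and 61.4 CPM in IVM MII, 78.2 and 88.8 CPM in IVO MII, and 16.9 and 15.5 CPM in GV libraries. The 3 groups did not overlap. The log2 fold change was 1.52 (SE 0.36, with an edgeR adjusted p of 0.013) in IVM MII over GV and 2.37 (SE 0.40, with an edgeR adjusted p of 0.00427) in IVO MII over GV. KDM5A, an H3K4 demethylase that binds the retinoblastoma protein, had 73.4, 75.6 and 197 CPM in IVM MII, 135 and 203 CPM in IVO MII, and 43.9 and 48.5 CPM in GV libraries. It rose in IVO MII with a log2 fold change of 1.87 (SE 0.54, with an edgeR adjusted p of 0.0322), and its value in IVM MII was 1.32 (SE 0.50, with an edgeR adjusted p of 0.0657). Without the second GV library KDM7A had an edgeR adjusted p of 0.128 in IVM MII and 0.0509 in IVO MII, without the first 0.113 in IVM MII, and KDM5A lost its call when either GV or either IVO MII library was left out (0.0538 to 0.169).

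Of the H3K27 demethylases KDM6A and KDM6B, KDM6A varied widely between libraries, with 9.17, 14.0 and 0.639 CPM in IVM MII libraries, 5.04 and 0.732 CPM in IVO MII libraries, and 3.99 and 2.69 CPM in GV libraries. Its MII libraries lay on both sides of GV, and neither gene was called in either comparison. The H3K9 and H3K36 demethylases KDM4A, KDM4B and KDM4C and their relative KDM4E were not called against GV either. KDM4E had the lowest edgeR adjusted p of them, 0.0588 in IVM MII over GV, with a log2 fold change of -2.42 (SE 0.88).

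Of the 6 KMT2 and SETD1 genes, which hold H3K4 methyltransferases and their relative KMT2E, 2 rose in IVM MII (KMT2C and KMT2E) and 3 in IVO MII (these and KMT2A). KMT2C (chromosome 3, bases 184832193 to 185019273, minus strand) had 1196, 1188 and 1495 CPM in IVM MII, 1790 and 1501 CPM in IVO MII, and 227 and 289 CPM in GV libraries. The MII libraries were alike and all above GV, with a log2 fold change of 2.32 (SE 0.31, with an edgeR adjusted p of 0.00174) in IVM MII and 2.67 (SE 0.33, with an edgeR adjusted p of 0.00211) in IVO MII. Its paralogue KMT2D, which acts in a complex of the same kind, had 20.5, 18.7 and 64.4 CPM in IVM MII, 19.5 and 56.0 CPM in IVO MII, and 21.5 and 23.7 CPM in GV libraries. The groups overlapped and KMT2D was not called (log2 fold change 0.61, SE 0.65, in IVM MII and 0.74, SE 0.70, in IVO MII). Per kilobase, KMT2C over KMT2D was 70.63, 77.0 and 28.08 in IVM MII, 111 and 32.43 in IVO MII, and 12.82 and 14.78 in GV libraries, so every MII library had the higher ratio.

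KMT2E, a family member without known methyltransferase activity that reads H3K4 trimethylation, had 26.6, 39.5 and 80.4 CPM in IVM MII, 91.9 and 104 CPM in IVO MII, and 7.68 and 12.3 CPM in GV libraries. Here IVO MII lay above IVM MII and both above GV, with a log2 fold change of 2.29 (SE 0.53, with an edgeR adjusted p of 0.0117) in IVM MII and 3.29 (SE 0.58, with an edgeR adjusted p of 0.00507) in IVO MII. KMT2A, a methyltransferase known for keeping HOX genes active, had 3.22, 4.90 and 11.7 CPM in IVM MII, 13.7 and 15.8 CPM in IVO MII, and 2.99 and 2.97 CPM in GV libraries. It rose in IVO MII by a log2 fold change of 2.30 (SE 0.69, with an edgeR adjusted p of 0.0382), and its value in IVM MII was 1.151 (SE 0.63, with an edgeR adjusted p of 0.181). Without the first GV library KMT2E had an edgeR adjusted p of 0.11 in IVM MII and 0.0501 in IVO MII, and the call of KMT2A was lost without either GV library, either IVO MII library or the second IVM MII library (0.0517 to 0.191). SETD1A and SETD1B, the catalytic subunits of the main H3K4 trimethylating complexes, were at most 7.21 and 22.4 CPM in a library and were not called.

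Among the H3K9 methyltransferases, the related EHMT1 and EHMT2, which form the dimer that sets H3K9 mono- and dimethylation, moved in opposite directions in IVM MII over GV. EHMT1 had 20.1, 17.9 and 20.4 CPM in IVM MII, 12.7 and 12.7 CPM in IVO MII, and 8.22 and 7.43 CPM in GV libraries. EHMT2 (chromosome 4, bases 138958199 to 138976917) had 0.751, 1.18 and 2.74 CPM in IVM MII, 1.68 and 13.3 CPM in IVO MII, and 16.5 and 15.4 CPM in GV libraries. For EHMT1 the 3 groups did not overlap, while for EHMT2 the second IVO MII library stood near the GV level and the first near the IVM MII level. EHMT1 rose in IVM MII by a log2 fold change of 1.31 (SE 0.39, with an edgeR adjusted p of 0.0302) and had 0.70 (SE 0.41, with an edgeR adjusted p of 0.233) in IVO MII. EHMT2 fell in IVM MII, with a log2 fold change of -3.34 (SE 0.87, with an edgeR adjusted p of 0.0182), and had -1.08 (SE 0.93, with an edgeR adjusted p of 0.413) in IVO MII. Both calls in IVM MII were lost without either GV library and without the first or second IVM MII library, with an edgeR adjusted p of 0.0549 to 0.234 for EHMT1 and 0.0563 to 0.0684 for EHMT2. That of EHMT1 was also lost with no filter on low counts (0.0607).

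Per kilobase, EHMT1 over EHMT2 was 17.78, 10.05 and 4.959 in IVM MII, 5.041 and 0.6327 in IVO MII, and 0.3315 and 0.3218 in GV libraries. EHMT2 was thus the higher of the pair in both GV libraries and in the second IVO MII library. SUV39H2, the germline-enriched enzyme for H3K9 trimethylation, had 72.6, 69.2 and 56.7 CPM in IVM MII, 70.7 and 86.4 CPM in IVO MII, and 66.9 and 86.5 CPM in GV libraries. Its groups overlapped, and its log2 fold change was -0.21 (SE 0.31) in IVM MII and 0.03 (SE 0.34) in IVO MII over GV. SUV39H1 was below 7 CPM in every library, with 0.429, 0.338 and 2.22 CPM in IVM MII, 0 and 0.578 CPM in IVO MII, and 6.53 and 4.71 CPM in GV libraries. All MII libraries lay below GV, but SUV39H1 was not called. Its log2 fold change over GV was -2.48 (SE 1.25, with an edgeR adjusted p of 0.147) in IVM MII and -4.22 (SE 1.57, with an edgeR adjusted p of 0.0751) in IVO MII. Of 15 alternative settings, 2 called SUV39H1 lower in IVM MII and 5 in IVO MII. The summed level per kilobase of the 7 H3K9 erasers over that of the 4 H3K9 writers was 2.226, 2.006 and 2.572 in IVM MII, 4.715 and 2.718 in IVO MII, and 0.569 and 0.4838 in GV libraries, and KDM3A gave most of the eraser sum in MII. For H3K27 the same ratio was 1.746, 2.727 and 2.266 in IVM MII, 9.037 and 4.415 in IVO MII, and 1.681 and 1.375 in GV libraries. Every MII library lay above GV, the first IVM MII library only narrowly. KDM7A, which counts as an eraser in both ratios, gave most of the H3K27 eraser sum in MII. Its mean was 9.354 of 10.83 CPM per kilobase in IVM MII and 16.83 of 17.82 in IVO MII, so the H3K9 and H3K27 ratios are not independent. The ratio for H3K4 was 4.765, 4.323 and 2.268 in IVM MII, 2.721 and 1.889 in IVO MII, and 2.416 and 2.569 in GV libraries, so MII and GV libraries overlapped, as they did in the ratios for H3K36 and for acetylation.

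Neither EZH1 nor EZH2, the catalytic subunits of Polycomb repressive complex 2, which methylates H3K27, was called. EZH2 had 16.8, 15.04 and 14.7 CPM in IVM MII, 5.65 and 10.6 CPM in IVO MII, and 5.99 and 6.79 CPM in GV libraries. All IVM MII libraries lay above all others, with a log2 fold change of 1.28 (SE 0.47, with an edgeR adjusted p of 0.0595) over GV. The H4K20 methyltransferases KMT5A, KMT5B and KMT5C were not called. KMT5A, the monomethyltransferase of the group and its highest member per kilobase, had 7.94, 12.9 and 17.2 CPM in IVM MII, 6.62 and 9.10 CPM in IVO MII, and 6.29 and 8.41 CPM in GV libraries.

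Of the other 7 SETD genes, SETD5 rose in both MII groups and SETD4 fell in IVM MII. SETD5, a SET-domain protein tied to transcription control and mutated in a neurodevelopmental disorder, had 9.87, 8.87 and 23.7 CPM in IVM MII, 17.2 and 33.3 CPM in IVO MII, and 3.60 and 2.56 CPM in GV libraries. Its log2 fold change over GV was 2.20 (SE 0.61, with an edgeR adjusted p of 0.0236) in IVM MII and 3.03 (SE 0.67, with an edgeR adjusted p of 0.0113) in IVO MII. SETD4 had 1.02, 1.82 and 3.08 CPM in IVM MII, 8.20 and 5.01 CPM in IVO MII, and 8.19 and 7.71 CPM in GV libraries. It shares 6.417% of its exon bases with a gene on the opposite strand, and the strand setting of the counts is not given, so its reads cannot be told apart there. Its log2 fold change in IVM MII was -2.00 (SE 0.61, with an edgeR adjusted p of 0.0336), and in IVO MII -0.27 (SE 0.67). SETD5 lost its calls without the first GV library (edgeR adjusted p = 0.107 in IVM MII and 0.0649 in IVO MII) or the second (0.163 and 0.0926), and SETD4 lost its call without either GV library or the first or second IVM MII library (0.0739 to 0.166). SETD3, an actin histidine methyltransferase and the highest of these genes per kilobase, had 21.9, 21.9 and 23.3 CPM in IVM MII, 29.6 and 37.2 CPM in IVO MII, and 31.6 and 27.8 CPM in GV libraries and was not called. SETD2, the main enzyme for H3K36 trimethylation, stayed under 6 CPM in every library.

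Among the arginine methyltransferases, PRMT9 rose and PRMT7 fell in both MII groups. PRMT7, which makes monomethylarginine (chromosome 20, bases 56539453 to 56587229), had 0.858, 0.845 and 1.39 CPM in IVM MII, 1.89 and 3.35 CPM in IVO MII, and 47.0 and 27.2 CPM in GV libraries. All MII libraries lay far below both GV libraries, and the IVM MII libraries lay below the IVO MII libraries. Its log2 fold change was -5.16 (SE 0.54, with an edgeR adjusted p of 0.00127) in IVM MII and -3.82 (SE 0.60, with an edgeR adjusted p of 0.00342) in IVO MII over GV. It shares 6.719% of its exon bases with SMPD3 on the opposite strand.

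PRMT9, which makes symmetric dimethylarginine on a splicing factor, had 55.5, 52.3 and 41.4 CPM in IVM MII, 74.8 and 34.2 CPM in IVO MII, and 14.0 and 9.61 CPM in GV libraries. Every MII library lay above GV, with a log2 fold change of 2.08 (SE 0.45, with an edgeR adjusted p of 0.00877) in IVM MII and 2.21 (SE 0.48, with an edgeR adjusted p of 0.0108) in IVO MII. These calls were lost without the first GV library (edgeR adjusted p = 0.0528 in IVM MII and 0.0593 in IVO MII) or the second (0.096 and 0.105), and in IVO MII also without its first library (0.0512). Per kilobase, PRMT9 over PRMT7 was 65.72, 62.93 and 30.2 in IVM MII, 40.31 and 10.37 in IVO MII, and 0.3018 and 0.3587 in GV libraries. PRMT1, the main source of asymmetric dimethylarginine, and PRMT5, the main source of symmetric dimethylarginine, were not called against GV. PRMT5 had 2.74, 5.11 and 5.41 CPM in IVM MII, 2.44 and 24.7 CPM in IVO MII, and 23.4 and 15.4 CPM in GV libraries, and its second IVO MII library stood at the level of GV while the other 4 MII libraries stood below it. Its fold change in IVM MII over GV was -2.13 (SE 0.81, with an edgeR adjusted p of 0.0678), and it was called lower there under 8 of 15 alternative settings (edgeR or DESeq2 adjusted p from 0.00959 to 0.0455 in those 8).

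**Figure D3:**
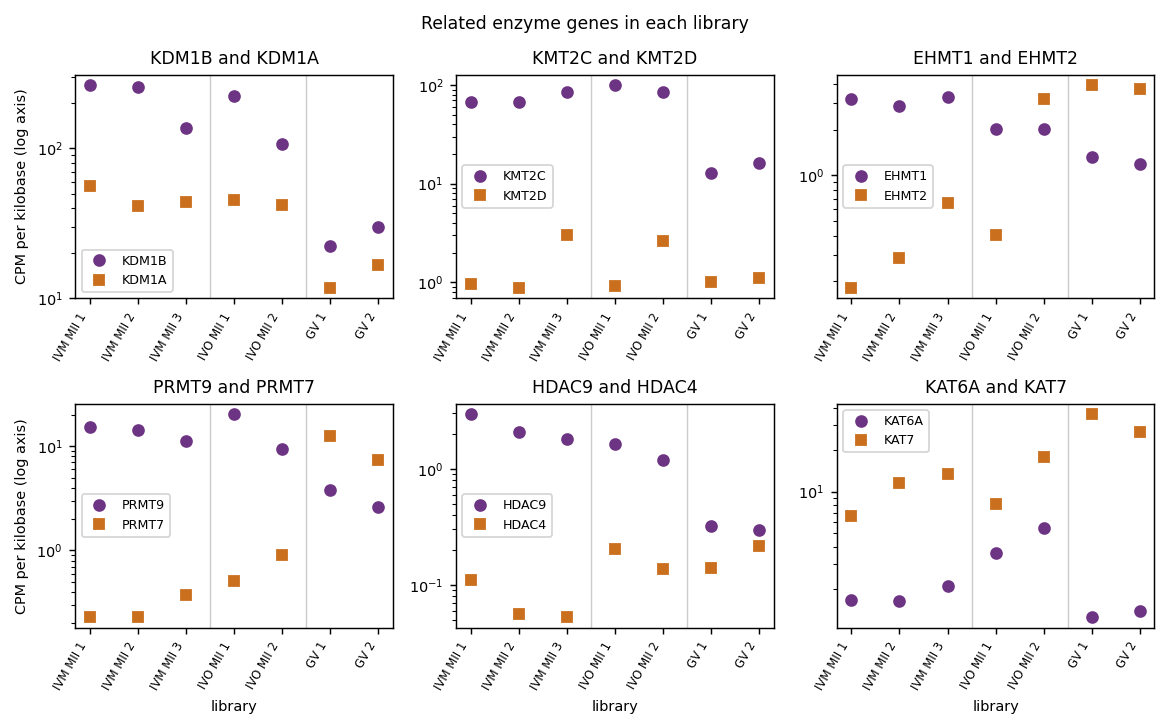
Level of related genes (CPM per kilobase, log axis) in each of the 7 libraries, with IVM MII left, IVO MII in the middle and GV right in each panel; circles and squares are the first and second gene of the panel's title. EHMT1 and EHMT2, and PRMT9 and PRMT7, change places between the IVM MII and the GV libraries, while KDM1B stays above KDM1A throughout.

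Of the 6 acetyltransferases tested, 1 was called in each comparison. KAT7, the catalytic subunit of HBO1 complexes, which acetylate H3K14 and H4 (chromosome 16, bases 35181281 to 35224453), had 24.6, 42.6 and 49.5 CPM in IVM MII, 30.2 and 65.6 CPM in IVO MII, and 135 and 99.9 CPM in GV libraries. All MII libraries lay below GV. It fell in IVM MII with a log2 fold change of -1.59 (SE 0.44, with an edgeR adjusted p of 0.0227) and had -1.29 (SE 0.50, with an edgeR adjusted p of 0.0818) in IVO MII. KAT6A, an H3 acetyltransferase of the MYST family, had 16.2, 16.1 and 20.7 CPM in IVM MII, 35.7 and 53.5 CPM in IVO MII, and 12.2 and 13.7 CPM in GV libraries. The IVM MII libraries stood just above GV and the IVO MII libraries well above both, and it rose in IVO MII by a log2 fold change of 1.78 (SE 0.41, with an edgeR adjusted p of 0.0141), beside 0.45 (SE 0.37, with an edgeR adjusted p of 0.371) in IVM MII. KAT7 lost its call without either GV library or the first or second IVM MII library (edgeR adjusted p = 0.0551 to 0.157), and KAT6A without either GV library or the second IVO MII library (0.0502 to 0.14).

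KAT2A, the acetyltransferase of SAGA and ATAC and the highest of the group per kilobase, had 44.1, 40.7 and 139 CPM in IVM MII, 107 and 293 CPM in IVO MII, and 130 and 143 CPM in GV libraries. The third IVM MII library stood at the GV level, the other IVM MII libraries below it, and the second IVO MII library above it. KAT2A was not called against GV, with a log2 fold change of -0.87 (SE 0.60) in IVM MII and 0.55 (SE 0.67) in IVO MII. KAT5 had under 1 CPM in every library and shares 33.7% of its exon bases with RNASEH2C on the opposite strand.

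Of the 10 deacetylases tested, HDAC9 rose in both MII groups and HDAC3 in IVO MII. HDAC9, a class IIa enzyme that binds MEF2 factors (chromosome 3, bases 101728101 to 102668878), had 61.7, 42.8 and 37.7 CPM in IVM MII, 34.3 and 24.8 CPM in IVO MII, and 6.62 and 6.16 CPM in GV libraries. The 3 groups did not overlap, with a log2 fold change over GV of 2.89 (SE 0.42, with an edgeR adjusted p of 0.00203) in IVM MII and 2.21 (SE 0.43, with an edgeR adjusted p of 0.00692) in IVO MII. The other class IIa genes HDAC4, HDAC5 and HDAC7 were under 3 CPM in every library and were not called. HDAC3, the catalytic subunit of the NCoR and SMRT complexes, had 8.53, 7.27 and 5.38 CPM in IVM MII, 15.03 and 10.9 CPM in IVO MII, and 3.93 and 2.97 CPM in GV libraries. It rose in IVO MII by a log2 fold change of 1.91 (SE 0.54, with an edgeR adjusted p of 0.0308) and had 1.03 (SE 0.50, with an edgeR adjusted p of 0.133) in IVM MII. Without the first GV library the edgeR adjusted p in IVO MII was 0.0672 for HDAC9 and 0.152 for HDAC3, without the second 0.0727 and 0.223, and without the first IVO MII library 0.0963 for HDAC3.

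HDAC2, the class I deacetylase with the highest level per kilobase in IVM MII and GV oocytes (HDAC3 was above it in IVO MII), had 23.3, 27.9 and 9.59 CPM in IVM MII, 12.4 and 13.4 CPM in IVO MII, and 22.2 and 13.3 CPM in GV libraries, with overlap between IVM MII and GV and no call. Its partner and paralogue HDAC1 stayed under 6 CPM in every library, with a log2 fold change over GV of 1.90 (SE 0.69, with an edgeR adjusted p of 0.0573) in IVM MII and 1.85 (SE 0.72, with an edgeR adjusted p of 0.0853) in IVO MII. HDAC11, the class IV enzyme, had 0, 0 and 0.451 CPM in IVM MII, 0.306 and 0.463 CPM in IVO MII, and 2.36 and 2.69 CPM in GV libraries and was not called.

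The second question was whether MII oocytes that matured in culture differ from those that matured in the animal. None of the 62 tested genes was called by edgeR between IVM MII and IVO MII (9 had an unadjusted edgeR p under 0.05), while DESeq2 called 3. Of all genes, edgeR called 1.47% (0.892% higher, 0.580% lower), and 21.1% had an unadjusted edgeR p under 0.05. The smallest adjusted p was that of KAT6A, with a log2 fold change of -1.34 (SE 0.36, with an edgeR adjusted p of 0.0933). Of the fold changes 23 were positive and 39 negative, with a median of -0.48, beside 0 over all genes. The groups did not overlap for 6 members that were higher in IVM MII and 18 that were lower, in all 38.71% of the members tested, beside 33.8% of all genes (17.8% higher, 16.0% lower). So the genes that passed the test against GV in 1 MII group alone (KDM5A, KMT2A, KAT6A and HDAC3 in IVO MII, and EHMT1, EHMT2, SETD4 and KAT7 in IVM MII) are not shown to differ between the MII groups by the edgeR test. By DESeq2, KAT6A and SETD4 of these were lower in IVM MII than in IVO MII, with a log2 fold change of -1.37 (DESeq2 adjusted p = 0.0043) and -1.80 (DESeq2 adjusted p = 0.0392), and so was KAT8. Over all genes DESeq2 also called far more between the MII groups than edgeR did, as given in the last section. The 3 DESeq2 calls are thus not shown to be particular to the family.

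**Figure D4:**
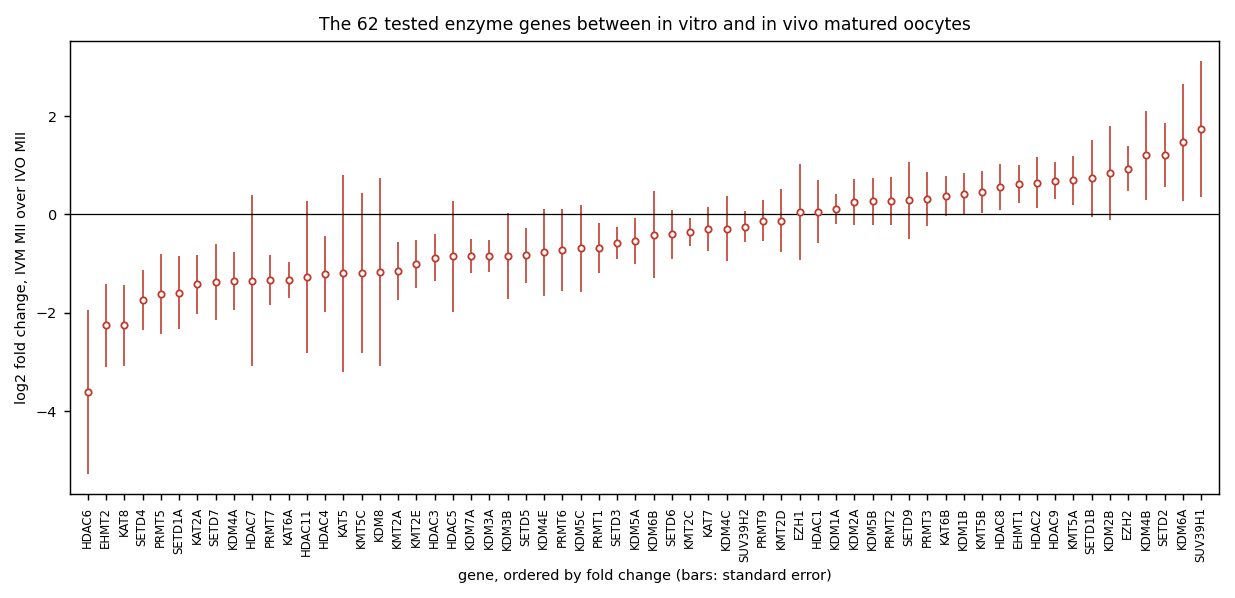
Log2 fold change of IVM MII over IVO MII for the 62 tested genes, ordered by size (x axis), with standard errors as bars. No gene passed an edgeR adjusted p of 0.05, and 39 of the 62 lie below 0.

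The lowest fold changes among genes at 10 CPM or more in the higher group belonged to PRMT5, KAT2A, KDM4A and KAT6A. PRMT5 had a log2 fold change of -1.62 (SE 0.80, with an edgeR adjusted p of 0.284), and this rests on the second IVO MII library, without which it was 0.77. KAT2A had -1.42 (SE 0.60, with an edgeR adjusted p of 0.222) on the log2 scale. KDM4A, an H3K9 and H3K36 demethylase, had 9.17, 10.2 and 29.4 CPM in IVM MII libraries, against 27.6 and 55.5 CPM in IVO MII libraries, with a log2 fold change of -1.35 (SE 0.58, with an edgeR adjusted p of 0.228). In both KAT2A and KDM4A the third IVM MII library lay within the range of IVO MII, and without it 3 genes were lower in IVM MII by the test. These were KAT2A (log2 fold change -2.25, edgeR adjusted p = 0.0391), KDM4A (-2.12, edgeR adjusted p = 0.0435) and KMT2E. In that fit the number called over all genes rose as well, as given in the last section. The 3 calls are thus not shown to be particular to the family.

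The highest fold changes among genes at 10 CPM or more in the higher group belonged to EZH2, KMT5A, HDAC9 and HDAC2. They were 0.93 (SE 0.46, with an edgeR adjusted p of 0.281) for EZH2, 0.69 (SE 0.50, with an edgeR adjusted p of 0.459) for KMT5A, 0.68 (SE 0.38, with an edgeR adjusted p of 0.334) for HDAC9 and 0.65 (SE 0.52, with an edgeR adjusted p of 0.511) for HDAC2. For KDM1B the log2 fold change of IVM MII over IVO MII was 0.41 (SE 0.43), for KMT2C -0.35 (SE 0.28) and for KDM3A -0.85 (SE 0.32), none of them called. For the H3K9 dimer the values were 0.61 (SE 0.38) for EHMT1 and -2.26 (SE 0.85) for EHMT2, not called either.

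The MII libraries varied more among themselves than the GV libraries did. The range within a group was over 1 log2 unit for 27 of 62 members in IVM MII (43.55%, beside 35.86% of all genes), for 18 in IVO MII (29.03%, beside 25.38%) and for 1 in GV (1.613%, beside 2.425%). IVM MII has 3 libraries and the other groups 2 each. A range over 3 libraries tends to be wider, so the IVM MII share cannot be compared directly with the others. The third IVM MII library lay nearer to the IVO MII mean than to the mean of the other IVM MII libraries for 38 of the 62 members (61.29%), beside 51.12% of all genes. For the first and second IVM MII libraries the share of members was 32.26% and 27.42%, beside 31.42% and 29.47% of all genes. KDM5C, an H3K4 demethylase, showed this spread in both MII groups, with 3.75, 3.55 and 26.5 CPM in IVM MII, 9.47 and 26.9 CPM in IVO MII, and 13.6 and 9.45 CPM in GV libraries.

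Histone-modifying complexes also hold partners that the symbol rule does not name. A list of 115 such genes (subunits of Polycomb, COMPASS, acetyltransferase and deacetylase complexes, and further methyltransferases, demethylases and acetyltransferases) had 108 members in the table, of which 101 were tested. Of these, 30 rose and 12 fell in IVM MII over GV, 28 rose and 9 fell in IVO MII over GV, and 3 were higher and 1 lower in IVM MII than in IVO MII. The share called was 41.58% in IVM MII over GV, beside 36.3% of all genes, 36.63% in IVO MII over GV, beside 28.1%, and 3.96% between the MII groups, beside 1.47%. The median log2 fold change of the list was 0.45 in IVM MII over GV, beside -0.10 over all genes, 0.53 in IVO MII over GV, beside -0.16, and -0.28 in IVM MII over IVO MII, beside 0. Over all tested genes at 10 CPM or more the medians were 0.58, 0.41 and 0.06 in the same order. The shares called at that level were 51.65%, 43.1% and 2.388%. The list was not split by level.

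RBBP4, a histone-binding subunit of Polycomb repressive complex 2 and of deacetylase complexes, had 424, 369 and 144 CPM in IVM MII, 17.4 and 14.8 CPM in IVO MII, and 118 and 118 CPM in GV libraries. Every IVM MII library lay above GV and both IVO MII libraries below it. The log2 fold change of IVM MII over IVO MII was 4.28 (SE 0.53, with an edgeR adjusted p of 0.0183), that of IVM MII over GV 1.40 (SE 0.46, with an edgeR adjusted p of 0.0418) and that of IVO MII over GV -2.88 (SE 0.51, with an edgeR adjusted p of 0.00526). Its close paralogue RBBP7 was not called between the MII groups (log2 fold change -0.04, SE 0.28). How many reads both paralogues share was not measured here.

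ING2, which reads H3K4 trimethylation for a SIN3 deacetylase complex, had 166, 117 and 112 CPM in IVM MII, 33.9 and 22.6 CPM in IVO MII, and 28.3 and 36.9 CPM in GV libraries. MSL1, the scaffold of the H4K16 acetyltransferase complex that holds KAT8, had 72.8, 82.0 and 57.1 CPM in IVM MII, 19.6 and 19.9 CPM in IVO MII, and 17.7 and 18.2 CPM in GV libraries. In both, the IVM MII libraries stood apart while IVO MII was near GV, and the log2 fold change of IVM MII over IVO MII was 2.22 (SE 0.38, with an edgeR adjusted p of 0.0362) for ING2 and 1.84 (SE 0.35, with an edgeR adjusted p of 0.0438) for MSL1. GATAD2B, a subunit of the NuRD deacetylase complex, had 8.69, 6.13 and 7.86 CPM in IVM MII, 37.2 and 38.2 CPM in IVO MII, and 6.14 and 5.37 CPM in GV libraries. It was lower in IVM MII than in IVO MII with a log2 fold change of -2.32 (SE 0.38, with an edgeR adjusted p of 0.0303). These 4 calls between the MII groups were lost without some libraries: RBBP4 without the first or second IVM MII or the second IVO MII library (edgeR adjusted p = 0.0636 to 0.0941), ING2 and GATAD2B without these or either GV library (0.0642 to 0.134), and MSL1 without any of these or the first IVO MII library (0.0779 to 0.147).

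**Figure D5:**
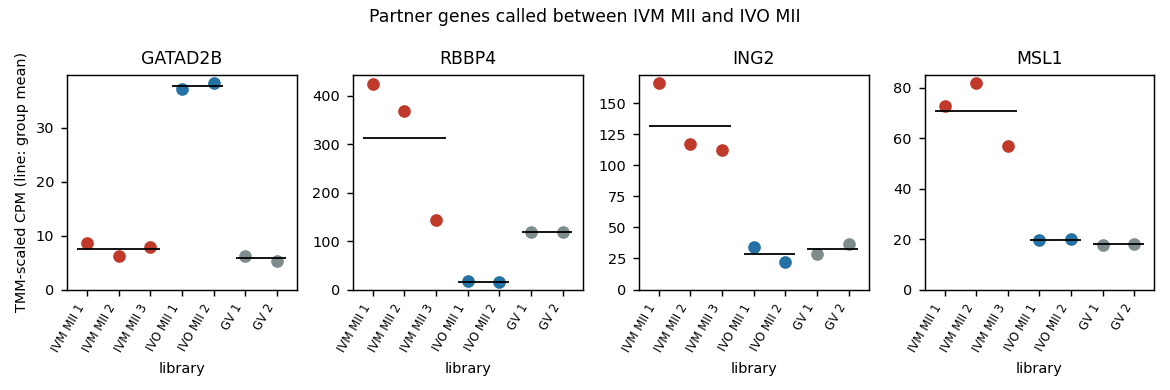
TMM-scaled CPM in each library (points) and group means (lines) of the 4 partner genes called between IVM MII and IVO MII, on axes that start at 0. RBBP4, ING2 and MSL1 stand higher in all 3 IVM MII libraries than in both IVO MII libraries, and GATAD2B stands lower.

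Against GV, the partners with the lowest fold changes fell far. PAGR1, a subunit of the KMT2C and KMT2D complexes, had 0.536, 0.972 and 0.639 CPM in IVM MII, 1.22 and 2.31 CPM in IVO MII, and 79.8 and 81.9 CPM in GV libraries. Its log2 fold change was -6.80 (SE 0.50, with an edgeR adjusted p of 0.00109) in IVM MII and -5.50 (SE 0.55, with an edgeR adjusted p of 0.0021) in IVO MII. The Polycomb subunit CBX8 had -5.06 (SE 0.96) and -5.15 (SE 1.14), and SGF29, the H3K4 methylation reader of SAGA, -3.91 (SE 0.42) and -4.78 (SE 0.51) in the same comparisons, and both fell in each. SMYD3, a lysine methyltransferase, and GPS2, of the NCoR complex, also fell in each, SMYD3 with -4.06 (SE 0.64) and -2.76 (SE 0.71) and GPS2 with -3.81 (SE 0.59) and -3.76 (SE 0.69), in IVM MII and in IVO MII over GV.

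Those with the highest fold changes included SUZ12, a core subunit of Polycomb repressive complex 2, which had 21.9, 24.2 and 4.89 CPM in IVM MII, 6.32 and 3.35 CPM in IVO MII, and 1.21 and 0.727 CPM in GV libraries. It rose in IVM MII over GV by a log2 fold change of 4.13 (SE 0.85, with an edgeR adjusted p of 0.00692, and 0.0601 without the second GV library). SAP30, a SIN3 complex subunit, rose by 3.54 (SE 0.56) in IVM MII and 3.75 (SE 0.58) in IVO MII. RCOR1, the CoREST partner of KDM1A, had 273, 230 and 202 CPM in IVM MII, 165 and 51.2 CPM in IVO MII, and 23.6 and 33.3 CPM in GV libraries, and rose in IVM MII by 3.05 (SE 0.53, with an edgeR adjusted p of 0.00361) and in IVO MII by 1.92 (SE 0.53, with an edgeR adjusted p of 0.0281). DPY30, a subunit shared by the KMT2 and SETD1 complexes, rose in IVM MII by 2.96 (SE 0.57) and in IVO MII by 1.79 (SE 0.56). RYBP of Polycomb repressive complex 1 rose in IVM MII by 2.54 (SE 0.49) and in IVO MII by 2.77 (SE 0.52), and the coactivator NCOA2 by 2.94 (SE 0.36) in IVM MII and 2.69 (SE 0.37) in IVO MII. GATAD2B had 0.39 (SE 0.39) in IVM MII over GV, not called, and rose in IVO MII by 2.71 (SE 0.44). Without 1 library, CBX8 (without the second IVO MII library, edgeR adjusted p = 0.0579), RYBP (without the first GV library, 0.0593) and GATAD2B (without the second GV library, 0.0512) lost their calls in IVO MII over GV.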

How the data were processed

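RNA of 7 oocyte libraries was read as raw counts per gene, which the authors deposited in 1 table without normalization. Per the submitters' processing notes, featureCounts 2.0.1, Bowtie2 2.4.5, Trim Galore 0.6.7, SAMtools 1.15.1 and DESeq2 were used. For the genome build, the strand setting and reads with several matches, what was used is not given in the sources used here. Since Bowtie2 splits no read across an intron, a read that spans a junction may be missed or counted on an intronless copy. Coordinates are those of the deposited table. Broken lines (10) were left out, and 26 rows whose names had become dates stay without a symbol.

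Counts were tested with edgeR 4.0.16 in R 4.3.3 (TMM, filterByExpr, quasi-likelihood fit, two-sided) over all 7 libraries, with Benjamini-Hochberg adjustment over 16374 genes and a threshold of 0.05. TMM factors were 0.766 to 0.909 in IVM MII, 0.834 and 0.985 in IVO MII, and 1.42 and 1.38 in GV. Groups came from the labels. An SE is the log2 fold change divided by the root of the F statistic. A count of 0 allows up to 3 counts, counting error only. Alternatives were other scalings, no filter, a newer edgeR fit, only the groups compared, a replicate block (by replicate number and, added after seeing the data, by the number in the file names), DESeq2 1.42.0, and leaving out each library.

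Members are named by symbol. Full statistics went to the 6 called members with the highest and the 6 with the lowest fold change in each comparison with GV at 10 CPM or more, to the highest member per kilobase of each family, to the 4 lowest and 4 highest between the MII groups, and to the 4 highest and 4 lowest called partners; other members are named outside that rule, after their values were seen. Members, lists and markers were chosen with earlier results of these data known. The value of 1 blood and immune marker is not reported here.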

Additional observations from a re-analysis of the deposited data

Results flagged for a closer look

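For 2 members every IVM MII library lay below, and every IVO MII library above, both GV libraries. How many of all genes show this pattern was not counted. Taken singly, 37.5% of all genes lay lower in IVM MII than in GV without overlap, and 32.0% lay higher in IVO MII. SETD1A, an H3K4 methyltransferase, had 0.590, 2.45 and 2.59 CPM in IVM MII, 4.18 and 7.21 CPM in IVO MII, and 3.45 and 3.19 CPM in GV libraries. Its log2 fold change of IVM MII over IVO MII, which is the difference between both changes from GV, was -1.59 and was not called (edgeR adjusted p = 0.255). KAT8, the H4K16 acetyltransferase, had 0.858, 0.338 and 0.902 CPM in IVM MII, 2.50 and 4.20 CPM in IVO MII, and 1.18 and 1.49 CPM in GV libraries. Its difference was -2.25 (edgeR adjusted p = 0.169). Of the partners, 4 had a called difference between their changes from GV, at log2 fold changes of 4.28 for RBBP4, 2.22 for ING2, 1.84 for MSL1 and -2.32 for GATAD2B.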

How the results depend on the processing

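The count of members called between IVM MII and IVO MII was 0, and 3 with a replicate block and 3 with DESeq2, all lower in IVM MII (KDM4A, KMT2E and KAT2A with the block, SETD4, KAT6A and KAT8 with DESeq2). It was 0 to 3 with a library left out, the 3 without the third IVM MII library. The log2 fold change of PRMT5 between the MII groups was -2.48 to 0.77 with a library left out, and above 0 without the second IVO MII library. Between IVO MII and GV 14 members were called, 4 to 15 with a library left out. Between IVM MII and GV 14 were called, 26 with the newer edgeR fit (13 higher, 13 lower), and 5 to 19 with a library left out. The counts over all genes against GV under the alternatives are not given here. Over all genes, 241 were called between the MII groups, 54 with only these groups fitted, 774 with the newer edgeR fit, 1238 with the block, 2029 with DESeq2, 1277 without the third IVM MII library and 0 without the first or the second. Same-numbered libraries did not all deviate together (correlations of 0.353 and -0.177 between IVM MII and IVO MII, -0.171 and 0.110 between IVM MII and GV, -0.234 between IVO MII and GV), so the replicate numbers are not shown to pair the samples. In the file names given by the labels the second IVO MII library has the number 3, and by these numbers the correlations between IVM MII and IVO MII were 0.353 and 0.406, from only 2 IVO MII libraries, whose deviations mirror each other. No label says that a number marks a shared animal or day. A block by file number, chosen after seeing the data, called 1 member between the MII groups, KAT2A (lower in IVM MII, edgeR adjusted p = 0.0453), 17 in IVO MII over GV (12 higher, 5 lower), where KMT2A lost its call (0.0564), and 21 in IVM MII over GV (10 higher, 11 lower). With the block by replicate number EHMT1 lost its call in IVM MII over GV, while KDM8, PRMT2, PRMT5, KAT2A and HDAC11 were also called lower there, and SETD1B, PRMT2 and KAT7 were also called lower in IVO MII over GV. Under RLE scaling the median over all genes was -0.26 (log2) in IVO MII and -0.24 in IVM MII over GV, and under upper quartile scaling it was -0.21 in IVM MII over GV and -0.11 between the MII groups. Neither scaling ended a member's call, but both ended that of MSL1 between the MII groups (edgeR adjusted p = 0.0517 and 0.0508). With only these groups fitted ING2, GATAD2B and MSL1 lost theirs (0.0787, 0.071 and 0.0953). PRMT8, KAT2B and HDAC10 had too few counts for a test. The cause of these changes was not tested.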
